A study of Homo sapiens with 10 samples.

Results

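EWSR1, the gene that encodes EWS, carried listed ChIP-seq peaks in 4 of the 7 peak lists of this series. Members were all peaks that overlapped the gene by at least 1 bp, with the gene taken as chr22:29663998-29696515 of hg19, a stretch of 32518 bp. There were 17 such peaks of 30301 in all lists. The gene was chosen because of these peaks, so their number, place and listing are described here and not tested.

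EWS is an RNA-binding protein that works in transcription and RNA processing. In Ewing sarcoma a chromosome break joins its gene to that of an ETS transcription factor, most often FLI1 and more rarely ERG. ERG binds DNA at sites with a GGAA core, and in prostate cancer it is commonly switched on by fusion of its gene to TMPRSS2. A factor bound to chromatin usually gives peaks at start sites or enhancers. DNA of an intron-free copy of a gene, such as an expression construct, aligns to the exons of that gene when it is present in a library.

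The lists came from ERG or EWS ChIP in 2 human lines of prostate origin. VCaP, a cancer line known to carry the TMPRSS2-ERG fusion, had 1 ERG list (7712 peaks) and 1 EWS list (9500 peaks). RWPE1 is a line of normal prostate, here stably expressing wild-type ERG, written RWPE1-ERG(WT), or the point mutant P436A of ERG, written RWPE1-ERG(P436A), and kept under puromycin and hygromycin selection. RWPE1-ERG(WT) had ERG replicate 1 (1901 peaks), ERG replicate 2 (1953 peaks) and an EWS list (5703 peaks). RWPE1-ERG(P436A) had an ERG list (1746 peaks) and an EWS list (1786 peaks). The labels name an ERG construct in the RWPE1 lines and none for EWS, and they do not say whether a line is 1 clone or whether the replicates were separate cultures. Only ERG ChIP in RWPE1-ERG(WT) was replicated, so the values of the other 5 lists have no replicate check. Depth is unknown, since each list gives positions only, with no height or score.

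Peaks in EWSR1 were found with both antibodies and in both cell lines. ERG replicate 2 of RWPE1-ERG(WT) had 7, the EWS list of RWPE1-ERG(P436A) had 4, and the ERG list of RWPE1-ERG(P436A) and the VCaP EWS list had 3 each. ERG replicate 1 of RWPE1-ERG(WT), the RWPE1-ERG(WT) EWS list and the VCaP ERG list had 0. By antibody, 2 of 4 ERG lists and 2 of 3 EWS lists held peaks in the gene. By cells, these were 2 of 2 lists of RWPE1-ERG(P436A), 1 of 3 of RWPE1-ERG(WT) and 1 of 2 of VCaP. The presence of peaks thus followed neither the antibody nor the cell line (VCaP or RWPE1). The lists also differed in their widest peak. It was 501 bp in VCaP EWS and both RWPE1-ERG(P436A) lists, and 5985 bp in ERG replicate 2. In the lists without a peak in the gene it was 184765 bp (VCaP ERG), 5574 bp (ERG replicate 1) and 7061 bp (RWPE1-ERG(WT) EWS). Whether presence depended on how each list was made was not tested.

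The replicates of wild-type ERG stood at opposite ends, with 0 and 7 peaks. They shared few peaks elsewhere too, with 116 overlapping pairs outside the gene from lists of 1901 and 1953 peaks. The 3 peaks of ERG P436A lay between 0 and 7. With replicates so far apart and 1 mutant list, these counts cannot show whether wild-type and mutant ERG differ here. For EWS, 0 peaks were listed with wild-type ERG and 4 with ERG P436A, from 1 list each.

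**Figure D1:**
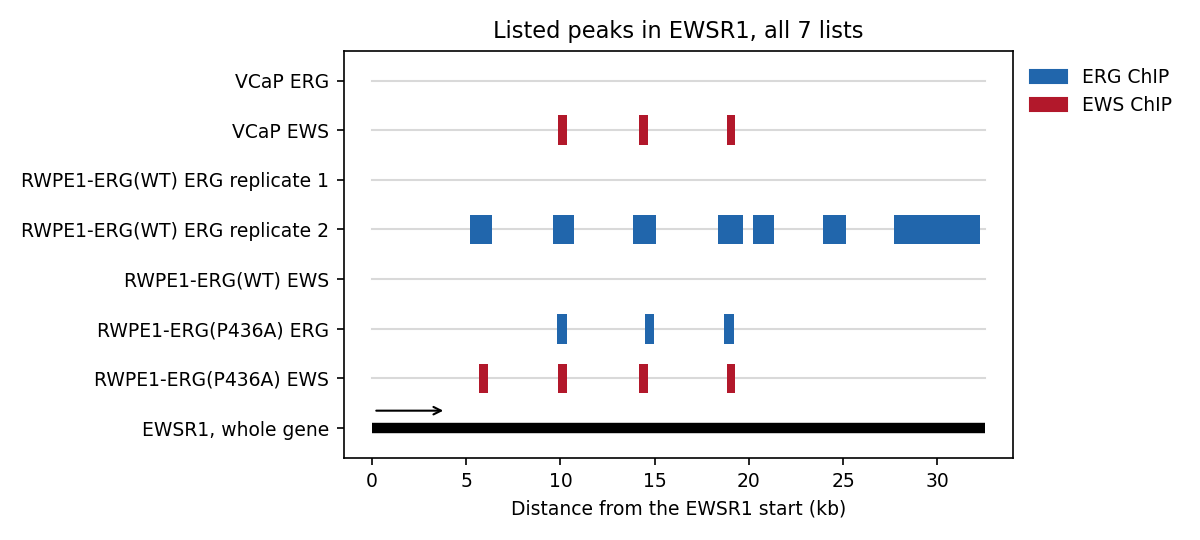
Each bar is a listed peak drawn to scale along EWSR1, with distance from the gene start in kb on the x axis and 1 row per list (blue for ERG ChIP, red for EWS ChIP; the arrow gives the direction of transcription). Rows with peaks repeat the same places, and the 3 rows of VCaP ERG, RWPE1-ERG(WT) ERG replicate 1 and RWPE1-ERG(WT) EWS are empty.

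The 17 peaks fell into 7 regions, numbered here from the 5′ end. Transcription runs toward higher positions (plus strand, from RefSeq's GRCh38.p14 table). All 7 regions were defined by peaks of ERG replicate 2, and each of the 10 peaks of the other 3 lists lay wholly within one of that list's peaks. Regions 2, 3 and 4 were in all 4 lists, region 1 was in ERG replicate 2 and the EWS list of RWPE1-ERG(P436A), and regions 5, 6 and 7 were in ERG replicate 2 only. The lists with fewer peaks therefore held a run of neighbouring regions in the 5′ and middle parts of the gene, and none held a place that ERG replicate 2 lacked.

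No list had a peak at the start of EWSR1. The first region began 5.21 kb into the gene, at chr22:29669209-29670353 in ERG replicate 2 and chr22:29669666-29670166 in the EWS list of RWPE1-ERG(P436A). On the other side of the start, in the direction of the neighbouring gene RHBDD3, the nearest listed peak of any list was 243 kb away, in the VCaP ERG list. The start site and its promoter were thus bare in all 7 lists, 3 of which had no peak anywhere in the gene. Most of the genome was bare too. Of 94994 other stretches of the gene's length, 5721 had a peak of VCaP EWS and 1780 one of ERG replicate 2. For RWPE1-ERG(P436A) these were 1632 (ERG) and 1737 (EWS).

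Region 2 lay 9.60 kb from the gene start. It was listed at chr22:29673600-29674717 in ERG replicate 2, at chr22:29673837-29674337 in the ERG list of RWPE1-ERG(P436A), and at chr22:29673879-29674337 in both the EWS list of RWPE1-ERG(P436A) and the VCaP EWS list. The 3 narrower peaks had the same last base, and the 2 EWS peaks were identical.

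Region 3 began at 13.8 kb. ERG replicate 2 had it at chr22:29677825-29679078, the EWS list of RWPE1-ERG(P436A) at chr22:29678143-29678640 and the VCaP EWS list at chr22:29678143-29678630. The ERG list of RWPE1-ERG(P436A) had it at chr22:29678491-29678939. Both EWS peaks started at the same base and ended 10 bp apart, whereas the ERG P436A peak was set toward the 3′ side, and the centres of the narrower peaks spread over 328 bp.

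Region 4 began at 18.4 kb, past the middle of the gene, and it held the first peak of the whole ERG replicate 2 list, at chr22:29682369-29683684. The ERG list of RWPE1-ERG(P436A) had chr22:29682686-29683186. Both EWS lists with peaks had chr22:29682824-29683263, again the same interval to the base in 2 cell lines.

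The remaining regions belonged to ERG replicate 2. Region 5, chr22:29684202-29685322, followed region 4 after a gap of 0.517 kb. Region 6 was at chr22:29687918-29689140. Region 7, chr22:29691704-29696296, was 4593 bp wide, the second widest peak of its list, and it stopped 219 bp before the end of the gene. In ERG replicate 2 the bare stretch at the 5′ end was thus 5.21 kb and that at the 3′ end 219 bp.

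The spacing was similar in every list that had peaks. Centres of neighbouring peaks were 4.28 and 4.66 kb apart in VCaP EWS, 4.63 and 4.22 kb in ERG of RWPE1-ERG(P436A), and 4.19, 4.28 and 4.65 kb in EWS of RWPE1-ERG(P436A). In ERG replicate 2 they were 4.38, 4.29, 4.58, 1.74, 3.77 and 5.47 kb apart. The gaps of the first 4 regions are alike because they are gaps between the same regions, and past region 4 the spacing was uneven. The peaks covered 36.2% of the gene in ERG replicate 2, 5.84% in EWS of RWPE1-ERG(P436A), 4.46% in ERG of RWPE1-ERG(P436A) and 4.27% in VCaP EWS, so bare stretches of 2.56 to 3.29 kb separated all neighbouring regions but 4 and 5 even where peaks were widest.

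**Figure D2:**
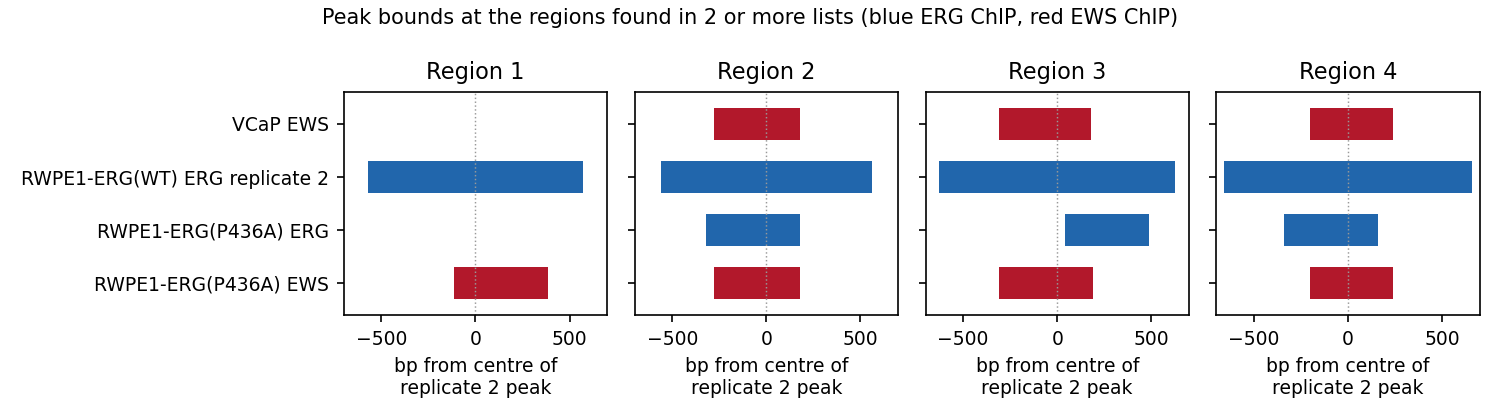
Peaks of the 4 lists at regions 1 to 4, in bp from the centre of the ERG replicate 2 peak (blue for ERG ChIP, red for EWS ChIP). The red EWS bars have equal bounds at regions 2 and 4 and a common start at region 3, and all bars lie inside the ERG replicate 2 peak.

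Bounds that agreed to the base were more frequent in EWSR1 than elsewhere in the same lists. Among overlapping pairs of peaks from the 4 lists, 5 of 19 in the gene had the same start or the same end (26.3%), against 19 of 363 outside it (5.23%). Both bounds were the same in 2 of 19 pairs (10.5%), against 1 of 363 (0.275%). Between the VCaP EWS list and the EWS list of RWPE1-ERG(P436A), 3 of 3 pairs in the gene had a bound in common and 2 of 46 elsewhere. A peak can enter several pairs, as those with the shared last base at region 2 did. The gene was also chosen for its peaks, so these shares were not tested. No peak in these 2 lists was wider than 501 bp, their median widths were 490 and 491 bp, and the identical intervals were 459 and 440 bp. Whether the equal bounds come from the way peaks were called was not tested.

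Widths of the gene's peaks differed between lists more than the list medians did. In ERG replicate 2 the gene's peaks were 1118 to 4593 bp, against a median of 501 bp over that list, where only 39 peaks were at least 1118 bp wide. In the other 3 lists the gene's peaks were 440 to 501 bp, with list medians of 490 to 491 bp. No peak of those 3 lists was wider than 501 bp anywhere. The contrast in width with ERG replicate 2 was therefore set by the lists and says nothing about the gene. The EWSR1 peaks were thus among the widest of ERG replicate 2. In both RWPE1-ERG(P436A) lists they ran from the greatest width of the list, 501 bp, to near the narrowest. That width was held by 110 peaks of the ERG list and 129 of the EWS list. In VCaP EWS all were below the list median, at 440 to 488 bp. As many as 9247 of 9500 VCaP EWS peaks and 1737 of 1786 EWS peaks of RWPE1-ERG(P436A) were at least as wide as the 440 bp peak of region 4.

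The EWSR1 peaks stood near the top of their lists. In ERG replicate 2 they took positions 1, 4, 5, 6, 7, 9 and 10, which is 7 of the first 10 peaks. In the EWS list of RWPE1-ERG(P436A) regions 4, 3, 2 and 1 took positions 2, 3, 4 and 6, in order from the 3′-most region to the 5′-most. In the ERG list of RWPE1-ERG(P436A) regions 3, 2 and 4 stood at 88, 91 and 156, or 5.04%, 5.21% and 8.93% of the way down. In VCaP EWS regions 4, 2 and 3 stood at 279, 538 and 3591, or 2.94%, 5.66% and 37.8%. Of the 17 peaks, 16 were within the first 10% of their list, the exception being region 3 in VCaP EWS. The order of the lists is not documented as a ranking. In ERG replicate 2 the correlation of width with listed position across peaks was weak (Spearman −0.229 over 1953 peaks of 1 library). All of its first 10 peaks were nonetheless at least 1118 bp wide. The same correlation was −0.771 in VCaP ERG, −0.655 in ERG replicate 1 and −0.246 in RWPE1-ERG(WT) EWS. It was −0.0625 in VCaP EWS, and 0.0622 (ERG) and 0.0418 (EWS) in RWPE1-ERG(P436A).

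**Figure D3:**
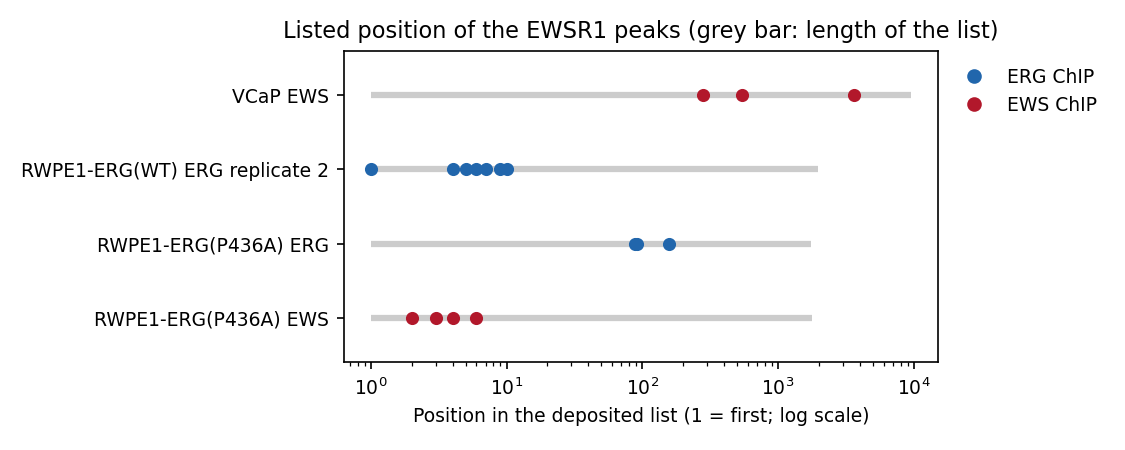
Position of each EWSR1 peak in its deposited list (x axis, log scale, 1 is the first listed), with grey bars as long as each list. Points of ERG replicate 2 (1 to 10) and of EWS in RWPE1-ERG(P436A) (2 to 6) lie at the head of the list, and those of VCaP EWS (279 to 3591) reach furthest down.

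In the RWPE1 lists that had them, these peaks were most of those listed on chromosome 22. All 4 peaks of that chromosome in the EWS list of RWPE1-ERG(P436A) were in EWSR1, as were 3 of 5 in the ERG list of those cells and 7 of 13 in ERG replicate 2. In VCaP EWS they were 3 of 172. The lists without a peak in the gene had 3 (ERG replicate 1), 2 (RWPE1-ERG(WT) EWS) and 111 (VCaP ERG) peaks on the chromosome. EWSR1 was thus an isolated cluster in the RWPE1 lists with peaks in it, on a chromosome with few other peaks.

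The nearest peaks outside the gene were far off. In ERG replicate 2 they were 8.49 Mb before and 1.51 Mb after it, and in the ERG list of RWPE1-ERG(P436A) the nearest was 1.12 Mb after it, with none before. VCaP EWS had its nearest 48.4 kb after and 537 kb before. No list had a peak within 5 kb of either end of the gene, so the bounds chosen for the gene did not decide which peaks were counted.

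Per Mb, ERG replicate 2 had 215 peaks in EWSR1 and 0.652 in the rest of the genome, the EWS list of RWPE1-ERG(P436A) 123 and 0.597, the ERG list of those cells 92.3 and 0.584, and VCaP EWS 92.3 and 3.18. The genome here runs from the first to the last listed peak of each chromosome. In VCaP EWS, whose list is the longest and crowded elsewhere, the density ratio was 29.0, against 330 in ERG replicate 2.

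To set these counts against the genome, it was cut into windows of the gene's length, 94994 beside EWSR1. At least 7 peaks of ERG replicate 2 were in 3 other windows (0.00316%), at least 4 of the EWS list of RWPE1-ERG(P436A) in 1 (0.00105%), at least 3 of the ERG list of those cells in 14 (0.0147%) and at least 3 of VCaP EWS in 742 (0.781%). Windows as full as EWSR1 were thus fewer in the RWPE1 lists than in VCaP EWS, but the peak counts required differ and the VCaP EWS list is longer. With at least 3 peaks in each, other windows numbered 32 (ERG replicate 2), 4 (RWPE1-ERG(P436A) EWS), 14 (RWPE1-ERG(P436A) ERG) and 742 (VCaP EWS). For the lists with 0 peaks in the gene, windows with at least 1 peak made up 1.86% (ERG replicate 1), 5.12% (RWPE1-ERG(WT) EWS) and 5.96% (VCaP ERG), so an empty window was the usual state in each. Since the gene was chosen for its peaks, these shares describe it and support nothing further.

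**Figure D4:**
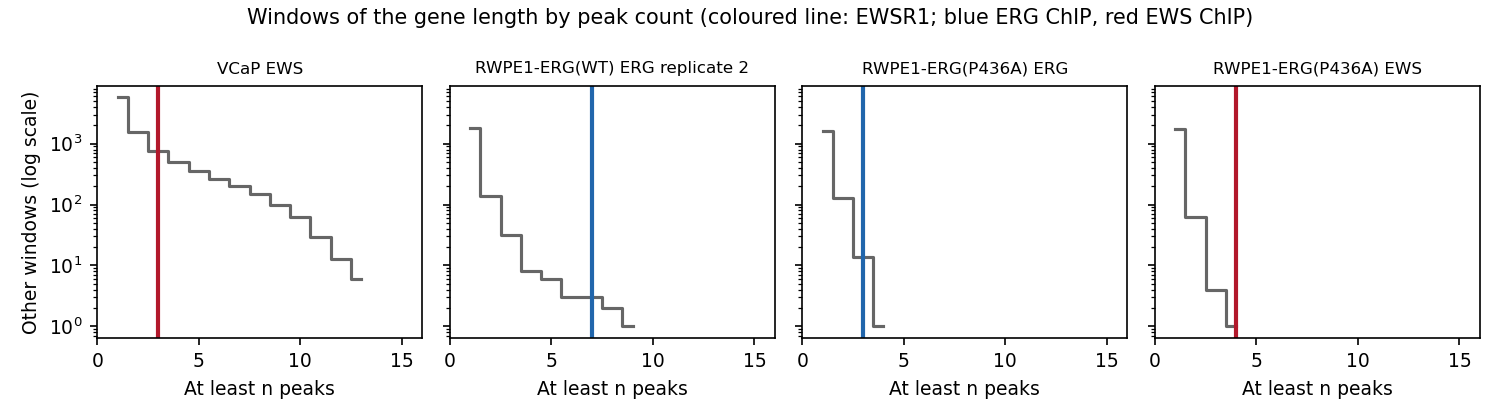
Number of other windows of the gene's length (y axis, log scale) that hold at least the number of peaks on the x axis, for the 4 lists with peaks in EWSR1. The coloured line marks EWSR1, which lies in the far tail in the 3 RWPE1 lists (3, 14 and 1 other windows as full) and not in VCaP EWS (742).

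The windows as full as EWSR1 in the 3 RWPE1 lists did not hold peaks of all 4 lists. All 3 windows with at least 7 peaks of ERG replicate 2 were on chromosome 19, between 13112336 and 13274925, with 7 to 9 peaks of that list, 1 or 2 of VCaP ERG and 0 of the other 5 lists. The 1 window with 4 peaks of the EWS list of RWPE1-ERG(P436A), chr20:29566444-29598961, had 4 of RWPE1-ERG(WT) EWS, 2 of ERG replicate 1, 1 of RWPE1-ERG(P436A) ERG and 0 of ERG replicate 2 and both VCaP lists. The 14 windows with at least 3 peaks of RWPE1-ERG(P436A) ERG each had 0 of the EWS list of those cells. By summed difference of the 7 counts, the windows most like EWSR1 were chr19:13242408-13274925 and chr20:37208174-37240691, each with a difference of 11, where a window with no peak has 17. The chromosome 20 window had 2 peaks each of ERG replicate 2 and both RWPE1-ERG(P436A) lists and 1 of each VCaP list. Next were 5 windows tied at 12. All 7 windows were nearer to an empty window than to EWSR1 by this measure.

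A peak of each of the 4 lists was found in 10 other windows (0.0105%) and, at the level of single merged regions, at 3 of 27921 regions outside the gene (0.0107%). Of the 3 with a peak in each of the 4 lists, chr21:9825341-9828169 also had peaks of ERG replicate 1 and RWPE1-ERG(WT) EWS. The other two had the 4 lists and no more, as regions 2, 3 and 4 of EWSR1 did. EWSR1 thus held 3 of the 5 regions of the genome listed in just these 4 lists. The 4 lists were picked because they had peaks in EWSR1, so this share describes the gene and supports nothing further.

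Of the pair elsewhere, chr1:166245190-166247093 was like the EWSR1 regions in its listing. It stood at position 3 in ERG replicate 2, 5 in EWS and 17 in ERG of RWPE1-ERG(P436A), and 553 in VCaP EWS. Its peak in ERG replicate 2 was 1904 bp wide, and the narrower peaks (493 to 498 bp) lay within it. The other, chr20:37220217-37220776, stood far down each list, at 94.8%, 97.5%, 80.1% and 98.7% in the same order. The chromosome 1 region was thus near the head of the RWPE1 lists like EWSR1, and the chromosome 20 region near their end.

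Besides EWSR1 and the chromosome 1 region, the first 10 peaks of ERG replicate 2 held chrX:77358809-77360333 at position 2 and chr7:26239852-26241577 at position 8. The former overlapped a VCaP ERG peak and the latter a VCaP EWS peak. Neither was in ERG replicate 1 or in a list of RWPE1-ERG(P436A). The head of this list was therefore made up of EWSR1 and 3 single wide peaks.

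Measurements that bear on the origin of the EWSR1 peaks are these. The start of the gene was bare in the 4 lists with peaks in it, and the other 3 lists had no peak anywhere in the gene. Most windows of the gene's length were likewise empty in each list. Regions 2, 3 and 4 were listed with both antibodies and in both cell lines, while region 1 was in 2 lists and regions 5 to 7 in 1. Several bounds agreed to the base at regions 2, 3 and 4. A wide region reached to 219 bp from the gene's end, and 1 of the 2 replicates of wild-type ERG had 7 peaks where its partner had 0. Those replicates had few peaks in common outside the gene as well (116 overlapping pairs). Exon positions of hg19 were not used here, so whether the regions sit on exons was not tested. The input samples were not used here either. Whether the listed peaks come from ERG or EWS bound to the gene or from DNA of an EWSR1 copy carried into some libraries was not tested.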

How the data were processed

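ChIP-seq of ERG or EWS was carried out in VCaP and RWPE1 cells. Each deposited list gives chromosome, start and end of every peak in bp, with no score. Reads were aligned with Bowtie2, version given as 0.12.8, to hg19 (per the submitters' processing notes). How peaks were called, and against which control, is not given in the sources used here. The labels mention no pooling, and 1 list goes with 1 sample. Of 10 samples, 7 had a list. The 3 inputs were not used here.

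Starts were read as 0-based, and all positions are 1-based. A peak was in EWSR1, or shared between lists, with at least 1 bp of overlap. Regions are merged overlapping peaks. All peaks in the gene are named, with the nearest peaks outside it and up to 5 windows most like it. Gene, lists and measures were chosen with earlier results of these data known. Counting was tested on simulated peaks. Alternatives were other overlap rules, wider gene bounds, 1-based starts, the first 50% or 10% of each list, and leaving out each replicate. Planned comparison genes (among them ERG, FLI1, ETV1, ETV4 and TMPRSS2) and exon distances needed an hg19 annotation and were not run. Python 3.11.15, NumPy 2.4.6, SciPy 1.17.1 and Matplotlib 3.10.9 were used.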

Additional observations from a re-analysis of the deposited data

How the results depend on the processing

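Counts of peaks in EWSR1 per list were the same with the peak centre or 50% of the peak inside the gene, the gene extended by 5 kb, 1-based starts, or the first 50% of each list. With the first 10%, chosen after seeing the data, VCaP EWS had 2 in place of 3 and the other lists kept their counts. Without ERG replicate 1 or 2 of RWPE1-ERG(WT), the total ran from 10 to 17 peaks and the distinct regions from 4 to 7, the lower values being those without replicate 2, while the regions common to every list with a peak stayed at 3. With a reciprocal overlap of 0.5, 0 regions were common to the 4 lists, since peaks of replicate 2 (at least 1118 bp) are too wide to be 50% covered by peaks of at most 501 bp. Without that list, also chosen after seeing the data, 2 were. Centres within 500 bp or peaks set to 500 bp gave 3. Over the rest of chromosome 22 the density ratio was 1251 for replicate 2 and 1608 for ERG of RWPE1-ERG(P436A), against 330 and 158 over the rest of the genome. It could not be formed for EWS of RWPE1-ERG(P436A), which had no other peak there, and over 1 Mb on both sides only VCaP EWS gave one (36.9). The median gap in replicate 2 was 4.34 kb between centres and 2.85 kb between edges. No paired analysis was possible because a single group of lists carries replicate numbers. Depth is unknown, so an empty list does not show that signal was absent.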
